A study of Mus musculus with 18 samples.

Results

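Wild-type mouse macrophages given GM were set directly against wild-type macrophages given MDP. The comparison took 6 of the 18 RNA-seq libraries of the series, 3 with GM and 3 with MDP, chosen by genotype and treatment label alone, and no water-treated library entered it. The cells were bone marrow-derived macrophages, primary cells differentiated from marrow progenitors with supernatant of L929 cells, which secrete the macrophage growth factor M-CSF. They came from C57BL/6J mice and received a compound on day 7, for 24 h, in IMDM without serum. GM is the disaccharide GlcNAc-MurNAc, the repeating sugar unit of bacterial peptidoglycan, with no peptide. MDP, muramyl dipeptide, keeps the MurNAc sugar, lacks the GlcNAc and carries a dipeptide. The labels spell its dipeptide as D-Ala-L-Gln, whereas the NOD2 agonist carries L-Ala-D-isoGln. Which molecule was given cannot be read from the data. The doses are not stated, so the effect of the compound and of its dose cannot be told apart. TLR4-knockout macrophages given the same compounds, 3 libraries each, were used for a test between genotypes. The replicates are labelled biological, but no label ties them to different animals or cultures. The p-values therefore reflect library-to-library spread, some of which may be technical.

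Macrophages sense peptidoglycan fragments in the cytosol through NOD1 and NOD2, which signal through the kinase RIPK2 to NF-kB. At the surface, TLR4 with its partners MD-2 (Ly96) and CD14 senses lipopolysaccharide, and signals to NF-kB and to interferon regulatory factors. NF-kB switches on genes for inflammatory cytokines, chemokines and nitric oxide synthase, and also the genes for its own inhibitors. Over hours, secreted cytokines act back on the cells, and SOCS proteins dampen that signalling.

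The 6 libraries held 16039614 to 19392017 counts, of which 3.04% to 3.33% came from mitochondrial genes. GM replicates were far less alike than MDP replicates, with a biological coefficient of variation of 26.6% with GM and 8.06% with MDP. The first principal component (70.2% of the variance of the 1000 most variable genes) put the GM libraries at -35.2, -16.8 and -40.3 and the MDP libraries at 28.5, 32.5 and 31.3. The groups did not overlap, and GM replicate 2 lay nearest to MDP. It was also the GM library nearest to the MDP mean in 59.3% of the genes higher with GM and in 54.4% of those higher with MDP.

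Of 14216 tested genes, 1523 (10.7%) differed at an adjusted p below 0.05 (edgeR quasi-likelihood test, Benjamini-Hochberg adjustment over all tested genes). With GM, 788 genes (5.54%) were higher and 735 (5.17%) were lower than with MDP. In 414 and 410 of them the difference was at least 2-fold. In all 1523 every GM library lay on the same side of every MDP library, against 18.9% (GM above) and 18.8% (GM below) of all tested genes. The median log2 fold change, GM minus MDP, was 0.004 over all tested genes, 1.06 over the genes higher with GM and -1.11 over those higher with MDP. These counts changed when a single library was left out, and by a like amount whichever MDP replicate it was. Leaving out GM replicate 2 gave 4535 genes and leaving out GM replicate 3 gave 2217, whereas leaving out GM replicate 1 gave 355 and MDP replicates 1, 2 and 3 gave 236, 208 and 227. In every one of these 6 fits, 183 genes passed in the same direction as in the whole comparison, 114 higher with GM and 69 higher with MDP. They are called robust below, and the fits without GM replicate 1 or without 1 of the MDP replicates are called the 4 reduced fits. A gene said to be lost in the 4 reduced fits passed without GM replicate 2 and without GM replicate 3. Of the genes higher with GM, 74 had no MDP library over the level of 0.52 CPM that the filter on low counts asked for, and 38 of the genes higher with MDP had no GM library over it. Such genes were tested only through the group where they were high, so a difference was built in. Counts of passing genes in the lists below stand beside 5.54% higher and 5.17% lower with GM over all tested genes.

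**Figure D1:**
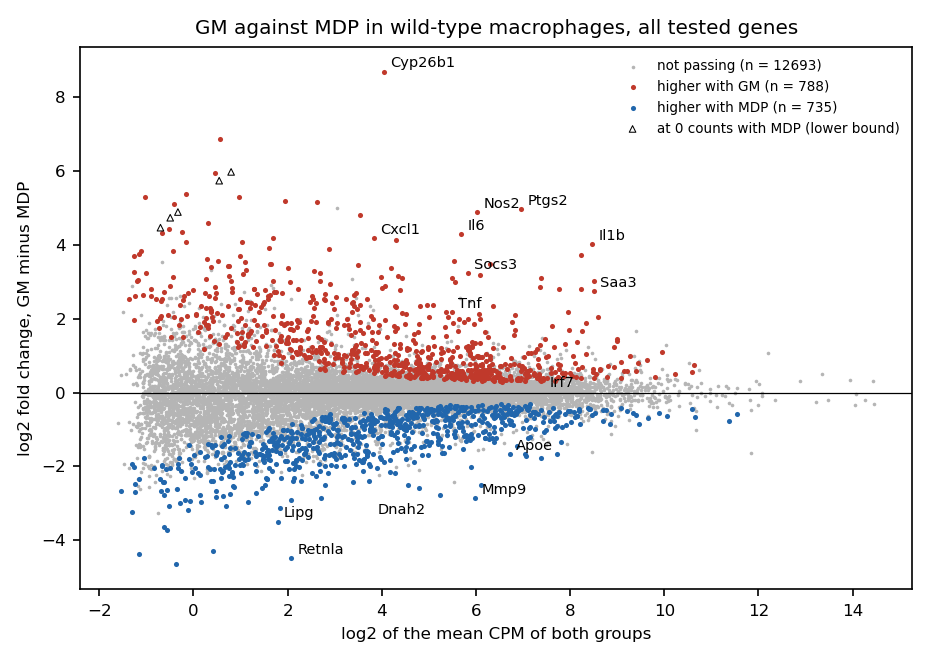
Log2 fold change, GM minus MDP, of the tested genes against the log2 of their mean CPM in wild-type macrophages; red points passed as higher with GM (788), blue points as higher with MDP (735), grey points did not pass, and open triangles are genes at 0 counts in the MDP libraries, drawn at their lower bound. Cyp26b1 is the highest labelled gene, inflammatory genes such as Il6, Nos2 and Ptgs2 stand well above the line, and Retnla, Lipg, Mmp9 and Apoe below it.

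Genes of the TLR4 and NOD pathways were expressed with either compound. Levels here and below are CPM, counts scaled to a fixed library size with TMM factors, and compare a gene between libraries, not with other genes. Tlr4 (ENSMUSG00000039005, GRCm39 chromosome 4, 66745821 to 66848521) had 183, 170 and 178 CPM with GM, against 125, 114 and 127 CPM with MDP. It was higher with GM (log2 fold change 0.54, SE 0.08, edgeR adjusted p = 0.012), but was lost in the 4 reduced fits, at adjusted p = 0.059 to 0.078. Ly96, encoding the MD-2 subunit, had 10.8, 9.23 and 15.5 CPM with GM, against 10.1, 9.57 and 10.2 CPM with MDP, and its groups overlapped (log2 0.25, 95% interval -0.22 to 0.72). Cd14, the lipopolysaccharide co-receptor gene, had 453, 252 and 516 CPM with GM, against 157, 168 and 147 CPM with MDP (log2 1.37, SE 0.25, edgeR adjusted p = 0.019). Cd14 was lost in the 4 reduced fits, at adjusted p = 0.077 to 0.1.

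Nod2, the gene of the muramyl dipeptide sensor, had 16.4, 26.2 and 12 CPM with GM, against 13.2, 15.5 and 13.1 CPM with MDP. These groups overlapped, and the log2 difference of 0.39 had a 95% interval of -0.25 to 1.03. Ripk2, the kinase downstream of both NOD receptors, had 41.2, 37.9 and 48.7 CPM with GM, against 21.6, 21.6 and 23.5 CPM with MDP, and was robust (log2 0.94, SE 0.12, edgeR adjusted p = 0.0061). Nod1 passed at log2 0.58 (SE 0.14, edgeR adjusted p = 0.045) and was lost in the 4 reduced fits, at adjusted p = 0.14 to 0.17. Cd180, a TLR4-related surface receptor gene that acts in B cells and myeloid cells, was lower with GM, at 127, 159 and 90.9 CPM, against 335, 306 and 318 CPM with MDP. Its log2 fold change was -1.35 (edgeR adjusted p = 0.0094), lost in the 4 reduced fits at adjusted p = 0.051 to 0.056. Of 28 tested pattern recognition receptor and adaptor genes (29 listed), 5 were higher with GM, 2 were lower and 21 did not pass, and their median log2 fold change was 0.03. Of these 28, 1 was higher with GM in each of the 4 reduced fits and 9 without GM replicate 2.

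Several inflammatory cytokine genes were more than 4-fold higher with GM. Il6 (ENSMUSG00000025746, GRCm39 chromosome 5, 30218112 to 30224979), a fever and acute-phase cytokine, had 107, 53 and 133 CPM with GM, against 4.59, 6.3 and 4.02 CPM with MDP. The GM libraries were all far above the MDP libraries, with GM replicate 2 the lowest of them. The means, 97.6 ± 40.6 CPM with GM and 4.97 ± 1.19 CPM with MDP (SD, n = 3 each), differed 19.5-fold (log2 4.29, SE 0.38, edgeR adjusted p = 0.0022).

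Il1b (ENSMUSG00000027398, chromosome 2, 129206490 to 129213059), encoding interleukin-1 beta, had 724, 383 and 897 CPM with GM, against 41.4, 46.6 and 35.7 CPM with MDP. It differed 16.2-fold (log2 4.02, SE 0.33, edgeR adjusted p = 0.002), again with GM replicate 2 lowest among the GM libraries and still above all MDP libraries. Il1a, the interleukin-1 alpha gene, had 592, 325 and 752 CPM with GM, against 43.2, 43 and 39.7 CPM with MDP (log2 3.73, SE 0.3). Tnf (ENSMUSG00000024401, chromosome 17, 35418357 to 35420983), encoding tumour necrosis factor, differed less. It had 80.9, 56.5 and 83.3 CPM with GM, against 17.4, 15.6 and 15.9 CPM with MDP, a 4.51-fold difference (log2 2.17, SE 0.16, edgeR adjusted p = 0.002). All 4 of these genes were robust.

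The 2 subunit genes of interleukin-12 were unequal in their separation. Il12a, the p35 subunit, had 191 counts over the GM libraries and 0 over the MDP libraries, at 4.24, 1.78 and 4.43 CPM with GM. Against the limit of 3 counts that a total of 0 allows in the MDP group, it was at least 62.6-fold higher with GM. It passed the filter on low counts only through the GM libraries, so its test lends no support. Il12b, the p40 subunit shared with interleukin-23, had 428, 214 and 522 CPM with GM, against 110, 129 and 120 CPM with MDP, so it was transcribed in both groups. Its log2 fold change was 1.7 (SE 0.3, edgeR adjusted p = 0.019) and was lost in the 4 reduced fits, at adjusted p = 0.074 to 0.094.

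Some cytokine genes were too low for the filter of the 6 wild-type libraries. Il23a, the p19 subunit of interleukin-23, had 10, 5 and 11 raw counts with GM, against 0, 1 and 3 with MDP. Il10, an anti-inflammatory cytokine, had 22, 9 and 22 raw counts with GM, against 1, 1 and 2 with MDP. Ifnb1, interferon beta, had 2, 1 and 0 raw counts with GM, against 6, 4 and 7 with MDP. Il10 and Il23a had more counts with GM and Ifnb1 more with MDP, all close to the detection limit. In the fit of 12 libraries of both genotypes, which Il10 and Il23a entered, their GM minus MDP values differed between wild type and knockout by 6.54 (SE 0.98, edgeR adjusted p = 0.00075) and 5.89 (SE 1.21, edgeR adjusted p = 0.0061) on the log2 scale. Only 2 and 1 of the wild-type libraries, all with GM, were over the filter level there. Of the knockout libraries 1 and 2 were, all with MDP. Both genes thus entered only through the groups that make this difference positive, so its tests lend no support.

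Of 17 tested pro-inflammatory cytokine genes (20 listed), 13 were higher with GM, 0 were lower and 4 did not pass. Of the 13, Il12a and the colony-stimulating factor gene Csf3 were tested only through the GM libraries. The list's median log2 fold change was 2.17, also with the genes at 0 counts in MDP set at their bound. In each of the 4 reduced fits 7 passed as higher with GM, the same 7 that were robust. The interleukin-36 gamma gene Il36g had 118, 22.6 and 115 CPM with GM, against 8.29, 7.21 and 5.96 CPM with MDP (log2 3.57). It passed in only 1 of the 6 leave-one-out fits, that without GM replicate 2, the library nearest to MDP.

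**Figure D2:**
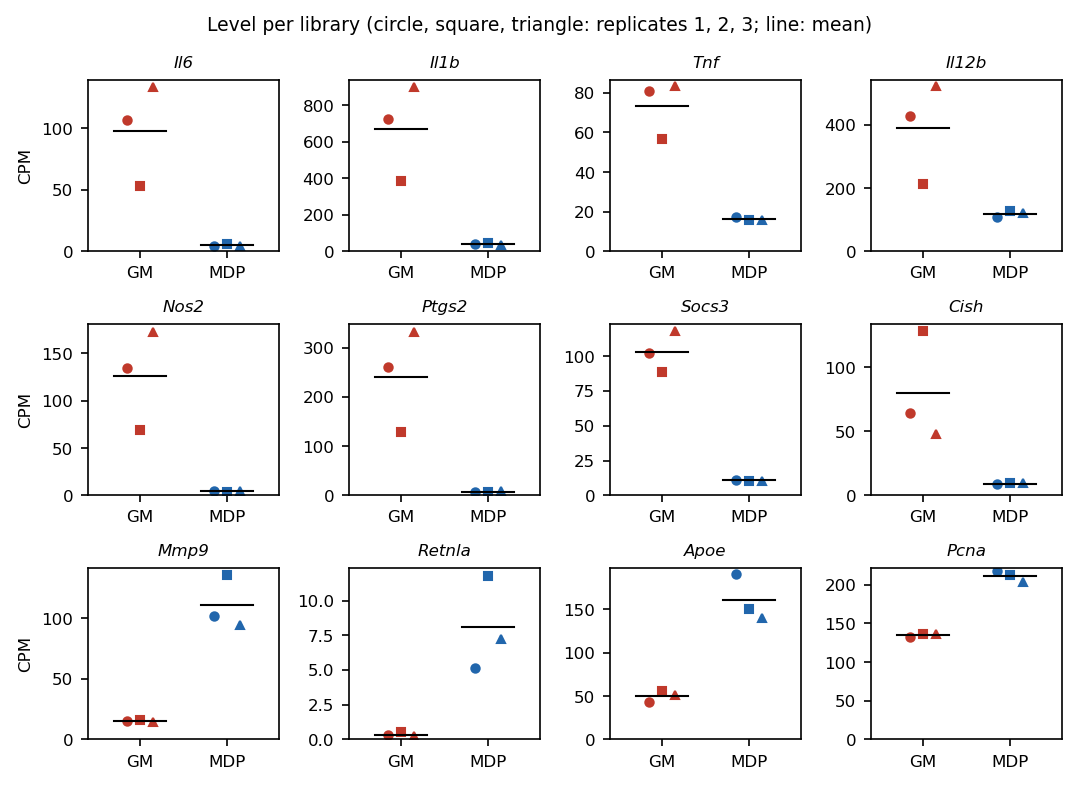
CPM of 12 genes in each wild-type library, GM (red, left) and MDP (blue, right), with circles, squares and triangles for replicates 1, 2 and 3 and a line at each mean; every axis starts at 0. GM replicate 2 (square) was the lowest GM library for Il6, Il1b, Tnf, Il12b, Nos2, Ptgs2 and Socs3. It was the highest for Cish, Mmp9, Retnla and Apoe, and no GM library overlapped an MDP library in any panel.

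Promoter sequences are shown for Il6 and Cxcl1, among the most strongly GM-high genes, and for Il12b, transcribed in both groups and higher with GM. Those of Irf7, which did not pass, and Retnla, which was MDP-high, are also shown. Cxcl1 and Retnla were picked for display after their values were seen. The sequences are from RefSeq on build GRCm38.p6, not the GRCm39 build of the counts, and each runs from 250 bases before to 50 bases after the annotated start, 5′ to 3′ on the gene's strand. Capitals mark a match to GGGANNTTC on either strand, a kB-type motif of the kind bound by NF-kB.
Il6, chr5:30012864-30013163, plus strand: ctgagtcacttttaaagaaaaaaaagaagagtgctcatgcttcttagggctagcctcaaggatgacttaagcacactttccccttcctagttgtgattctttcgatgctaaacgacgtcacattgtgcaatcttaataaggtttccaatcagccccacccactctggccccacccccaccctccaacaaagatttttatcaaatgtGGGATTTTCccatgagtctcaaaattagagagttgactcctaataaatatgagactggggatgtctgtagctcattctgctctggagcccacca
Cxcl1, chr5:90890995-90891294, plus strand: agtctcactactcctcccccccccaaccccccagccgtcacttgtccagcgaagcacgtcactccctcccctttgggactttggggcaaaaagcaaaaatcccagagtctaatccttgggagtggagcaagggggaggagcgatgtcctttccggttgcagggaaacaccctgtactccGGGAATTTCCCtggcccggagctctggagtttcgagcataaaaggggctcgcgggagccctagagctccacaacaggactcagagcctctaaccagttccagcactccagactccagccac
Il12b, chr11:44399813-44400112, plus strand: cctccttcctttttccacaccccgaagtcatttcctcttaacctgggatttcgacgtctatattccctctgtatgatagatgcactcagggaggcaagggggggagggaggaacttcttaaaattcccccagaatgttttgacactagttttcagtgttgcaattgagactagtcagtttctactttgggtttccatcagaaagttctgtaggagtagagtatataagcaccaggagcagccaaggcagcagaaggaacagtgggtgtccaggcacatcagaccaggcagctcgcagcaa
Irf7, chr7:141266375-141266674, minus strand: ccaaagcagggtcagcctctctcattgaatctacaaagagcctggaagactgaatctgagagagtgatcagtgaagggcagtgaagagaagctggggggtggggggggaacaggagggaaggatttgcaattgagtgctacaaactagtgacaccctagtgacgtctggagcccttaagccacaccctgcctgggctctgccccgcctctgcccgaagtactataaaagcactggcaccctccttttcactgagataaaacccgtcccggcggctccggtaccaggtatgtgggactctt
Retnla, chr16:48842359-48842658, plus strand: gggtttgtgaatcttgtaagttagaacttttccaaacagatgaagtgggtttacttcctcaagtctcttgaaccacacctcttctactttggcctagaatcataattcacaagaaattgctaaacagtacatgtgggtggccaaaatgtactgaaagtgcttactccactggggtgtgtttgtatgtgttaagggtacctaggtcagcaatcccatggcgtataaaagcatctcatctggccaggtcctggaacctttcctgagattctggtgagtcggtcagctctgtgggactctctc
The Il6 window held 1 match, starting at position -44 from the annotated start. The Cxcl1 window held 2 overlapping matches, 1 per strand, starting at -71 and -69. The windows of Il12b, Irf7 and Retnla held none of either motif, which says nothing of factor binding there or elsewhere.

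Among genes with a RefSeq promoter (10179 of the 14216 tested), a gene was counted where any of its promoters held a match. The kB-type match stood in 30 of 588 genes higher with GM (5.1%). It stood in 27 of 448 genes higher with MDP (6.03%) and in 4.49% of all 10179. A match to GAAANNGAA, the kind of element bound by interferon regulatory factors, stood in 9.01%, 10.9% and 9.03% of the same sets, on either strand. Over all 32851 RefSeq promoters, counted singly and so by a different measure, the shares were 3.94% and 8.56%. Both sets of differing genes held the motifs at shares within a few points of those of all tested genes.

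Neutrophil-attracting chemokine genes followed the cytokines. Cxcl1 (ENSMUSG00000029380, chromosome 5, 91039100 to 91040974) had 32.7, 14.6 and 33.9 CPM with GM, against 1.21, 1.81 and 1.44 CPM with MDP (log2 4.17, SE 0.38, edgeR adjusted p = 0.0024). Cxcl2 had 165, 80.2 and 186 CPM with GM, against 11.9, 15.9 and 10.9 CPM with MDP (log2 3.47, SE 0.34). In both, the GM libraries were all above the MDP libraries and GM replicate 2 was the lowest of them.

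Ccl3, which attracts monocytes and T cells, had a smaller and tighter difference, at 184, 214 and 189 CPM with GM, against 95.1, 94.7 and 91.8 CPM with MDP (log2 1.06, SE 0.09, edgeR adjusted p = 0.002). Cxcl10, an interferon-inducible T cell attractant, had 20.5, 17.4 and 25 CPM with GM, against 5.33, 7.91 and 6.72 CPM with MDP (log2 1.65, SE 0.2). These 4 chemokine genes were robust, whereas Ccl5 (log2 0.83, edgeR adjusted p = 0.033) was lost in the 4 reduced fits, at adjusted p = 0.12 to 0.14. Of 21 tested chemokine genes, 9 were higher with GM, 1 was lower and 11 did not pass, with a median log2 fold change of 0.83. The 9 became 10 without GM replicate 2 or 3, 6 without GM replicate 1 and 4 without any MDP replicate.

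Receptor genes for chemoattractants went in both directions. The formyl peptide receptor genes, which guide phagocytes to bacterial peptides, were higher with GM. Fpr1 had 53.1, 27.4 and 49.9 CPM with GM, against 13, 11 and 11.9 CPM with MDP (log2 1.86, edgeR adjusted p = 0.0081), and Fpr2 had a log2 fold change of 1.41. Cxcr4, the CXCL12 receptor gene, was lower with GM, at 76.6, 68.3 and 90.2 CPM, against 130, 120 and 140 CPM with MDP (log2 -0.73, edgeR adjusted p = 0.015). Ccr7, a lymph-node homing receptor gene, was also lower, at log2 -0.49 (edgeR adjusted p = 0.026). Fpr1 was lost without MDP replicate 2 or 3 (adjusted p = 0.056 and 0.059) and Fpr2 without any MDP replicate (0.058 to 0.062). Cxcr4 and Ccr7 were lost in the 4 reduced fits, at 0.063 to 0.08 and 0.091 to 0.13. Of 16 tested receptor genes, 2 were higher and 3 lower with GM, and the median log2 fold change was -0.24.

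Of 24 tested antimicrobial and nitric oxide genes, 12 were higher with GM, 0 were lower and 12 did not pass, with a median log2 fold change of 0.89. Nos2 (ENSMUSG00000020826, chromosome 11, 78811613 to 78851080), the inducible nitric oxide synthase, had 135, 68.9 and 173 CPM with GM, against 5.17, 3.22 and 4.33 CPM with MDP. It differed 29.7-fold (log2 4.89, SE 0.39, edgeR adjusted p = 0.002), with means of 126 ± 52.8 CPM with GM and 4.24 ± 0.977 CPM with MDP (SD, n = 3 each). Slc7a2, which imports the arginine that Nos2 uses, had 402, 273 and 465 CPM with GM, against 54.5, 45.6 and 62.3 CPM with MDP (log2 2.81, SE 0.22). Ptgs2 (ENSMUSG00000032487, chromosome 1, 149975782 to 149983978), the inducible cyclooxygenase of prostaglandin synthesis, had 261, 129 and 333 CPM with GM, against 7.81, 7.31 and 8.16 CPM with MDP (log2 4.96, SE 0.37).

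The acute-phase gene Saa3 had 642, 450 and 801 CPM with GM, against 99.1, 91.5 and 90.9 CPM with MDP (log2 2.75, SE 0.21, edgeR adjusted p = 0.002). Acod1, the itaconate-producing enzyme, was high in both groups and differed less, at 705, 581 and 755 CPM with GM, against 295, 281 and 300 CPM with MDP (log2 1.22, SE 0.12). The scavenger receptor gene Marco, which binds bacteria, had 47.4, 30.8 and 62 CPM with GM, against 11, 9.73 and 6.91 CPM with MDP (log2 2.33, SE 0.29). All of these effector genes were robust. Without GM replicate 2, 13 genes of the antimicrobial and nitric oxide list were higher and 5 were lower with GM, and in the 4 reduced fits 9 or 10 were higher and 0 lower.

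Several genes that restrain cytokine signalling were also higher with GM. Socs3 (ENSMUSG00000053113, chromosome 11, 117856905 to 117860873), which blocks interleukin-6 receptor signalling, had 102, 88.6 and 118 CPM with GM, against 11.3, 10.7 and 10.6 CPM with MDP. This was a 9.47-fold difference (log2 3.24, SE 0.13, edgeR adjusted p = 0.00025), and leaving out any library left its adjusted p at or below 0.011. Socs1, which restrains interferon signalling, had 52.8, 62.6 and 39.3 CPM with GM, against 12.2, 13.3 and 11.9 CPM with MDP (log2 2.04, SE 0.18). Cish, a SOCS family gene induced through STAT5, had 64.6, 128 and 47.9 CPM with GM, against 8.71, 9.57 and 9.48 CPM with MDP (log2 3.11, SE 0.37, edgeR adjusted p = 0.0055). For Cish and Socs1, GM replicate 2 was the highest library, the reverse of its place for Il6, Il1b and Nos2.

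The adenosine receptor gene Adora2b was also higher with GM (log2 1.69, SE 0.19), and like the 3 SOCS family genes it was robust. Of 23 tested anti-inflammatory and brake genes, 7 were higher with GM, 1 was lower and 15 did not pass (median log2 0.4), and 4 were higher in each of the 4 reduced fits. Among NF-kB components and feedback genes, the mitochondrial superoxide dismutase gene Sod2 had 304, 225 and 319 CPM with GM, against 121, 119 and 125 CPM with MDP, and was robust (log2 1.22, SE 0.14). Nfkbia, encoding the inhibitor IkB-alpha, had 170, 156 and 150 CPM with GM, against 98.7, 105 and 95.1 CPM with MDP (log2 0.67, edgeR adjusted p = 0.0066), and was lost without MDP replicate 1 or 3 (adjusted p = 0.055 and 0.056). Tnfaip3, the NF-kB inhibitor A20, differed by log2 0.36 (edgeR adjusted p = 0.038) and was lost in the 4 reduced fits, at adjusted p = 0.1 to 0.16. Of 24 tested genes of this list 7 were higher with GM and 0 lower, with a median log2 fold change of 0.25. That count was 9 without GM replicate 2, 8 without GM replicate 3, 4 without GM replicate 1 and 1 to 3 without an MDP replicate.

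**Figure D3:**
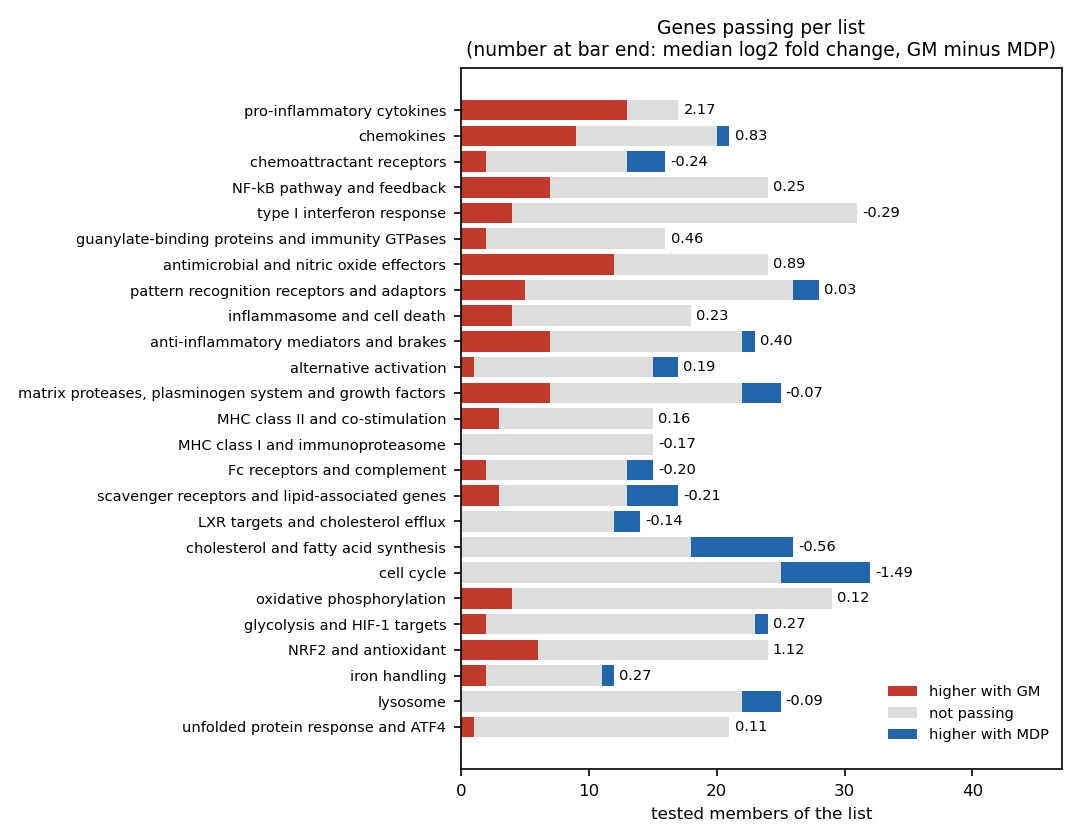
Number of tested genes in each list, cell type markers aside, that passed as higher with GM (red), did not pass (grey) or passed as higher with MDP (blue), with the list's median log2 fold change, GM minus MDP, at the bar end. Among the lists drawn, the cytokine, antimicrobial and chemokine lists hold the most red members (13, 12 and 9), and the cell cycle and cholesterol lists hold no red member and 7 and 8 blue ones.

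Most type I interferon response genes did not pass, and the same held over all tested genes. Irf7, the interferon regulatory factor that amplifies this response, had 168, 162 and 191 CPM with GM, against 194, 165 and 152 CPM with MDP, and the groups overlapped. Its log2 difference was 0.03 with a 95% interval of -0.25 to 0.3. Of 31 tested genes of the list, 4 were higher with GM, 0 were lower and 27 did not pass. Over all tested genes 5.54% were higher and 5.17% lower with GM. The list's median log2 fold change was -0.29. The 4 were Oasl1 (log2 0.91), Isg20 (0.94), Isg15 (0.69) and Ifit1 (0.67), at edgeR adjusted p = 0.018 to 0.042, and they were lost in the 4 reduced fits, at adjusted p = 0.064 to 0.16. The ubiquitin-like modifier Isg15 had 76.5, 69.8 and 91.3 CPM with GM, against 56.7, 48.3 and 42.6 CPM with MDP.

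The list's median level in each library, in log2 units relative to the mean of the 6, was -0.25, 0.25 and -0.35 with GM, against 0.19, 0.11 and 0.08 with MDP. GM replicate 2 lay above every MDP library and the other GM libraries below them. Without GM replicate 2, 6 genes of the list were higher and 19 lower with GM. Guanylate-binding protein genes, which encode interferon-inducible GTPases that attack vacuoles holding microbes, included 2 robust members. Gbp4 had 32.1, 33.5 and 31.3 CPM with GM, against 15, 13.9 and 13 CPM with MDP (log2 1.21, SE 0.1), and Gbp5 differed by log2 1.64 (SE 0.2). Of 16 tested genes in that family and the related immunity GTPases, those 2 passed, and without GM replicate 2 7 were higher and 5 lower with GM.

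Inflammasome and co-stimulation lists held some genes higher with GM, beside 5.54% of all tested genes, and the MHC class I list none in edgeR. Nlrp3, the inflammasome sensor gene, had 98.3, 77.2 and 85.1 CPM with GM, against 42.9, 48.2 and 43.6 CPM with MDP, and was robust (log2 0.95, SE 0.11, edgeR adjusted p = 0.0049). It was 1 of 4 genes higher with GM among 18 tested, and the other 3, Casp4, Ripk3 and Mlkl, were lost in the 4 reduced fits (adjusted p = 0.091 to 0.17). Cd80, a co-stimulatory ligand gene for T cells, had 85.7, 102 and 82.1 CPM with GM, against 33.3, 38.2 and 35.7 CPM with MDP, and was robust (log2 1.33, SE 0.11). Its relative Cd86 was at log2 1.14 (edgeR adjusted p = 0.028), lost in the 4 reduced fits at adjusted p = 0.075 to 0.12. Of 15 tested MHC class II and co-stimulation genes 3 were higher with GM and 0 lower, and of 15 MHC class I and immunoproteasome genes 0 passed in edgeR. Of these 15, 1 had an unadjusted p below 0.05, and 1 passed as higher with GM in DESeq2 and in limma-voom with a spread per group. Without GM replicate 2, 7 of the class II list and 9 of the class I list were lower with GM, and 3 and 2 were higher.

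MDP-treated cells had more RNA of several secreted and lipid-handling proteins. Retnla (ENSMUSG00000061100, chromosome 16, 48662914 to 48664824), encoding the alternative activation product RELM-alpha, had 0.314, 0.51 and 0.236 CPM with GM, against 5.17, 11.8 and 7.22 CPM with MDP. It was 22.2-fold higher with MDP (log2 -4.47, SE 0.45), at a low level in both groups, and was tested only through the MDP libraries. Its adjusted p was 0.0029 in edgeR and 0.052 in limma-voom with a spread per group. Mmp9 (ENSMUSG00000017737, chromosome 2, 164782700 to 164797770), a secreted gelatinase, had 15.1, 15.9 and 14.8 CPM with GM, against 102, 136 and 94.6 CPM with MDP. This was 7.28-fold higher with MDP (log2 -2.86, SE 0.15, edgeR adjusted p = 0.00077), with the 3 GM libraries close together. Fn1, the matrix protein fibronectin, had 77.8, 71.6 and 81.2 CPM with GM, against 133, 140 and 155 CPM with MDP (log2 -0.89, SE 0.09).

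Apoe (ENSMUSG00000002985, chromosome 7, 19430034 to 19433113), the lipid carrier apolipoprotein E, had 43.4, 56.4 and 51.4 CPM with GM, against 191, 150 and 140 CPM with MDP (log2 -1.67, SE 0.15, edgeR adjusted p = 0.0022). Pltp, the phospholipid transfer protein, had 25.1, 23.5 and 33.2 CPM with GM, against 70.6, 76.7 and 88.2 CPM with MDP (log2 -1.53, SE 0.15). Both are targets of the sterol-sensing receptor LXR, and they were the 2 of 14 tested LXR target genes that passed, the list's median being -0.14. Lipg, endothelial lipase, had 0.471, 0.561 and 0.649 CPM with GM, against 5.33, 7.16 and 6.53 CPM with MDP (log2 -3.49, SE 0.27). Mmp9, Fn1, Apoe, Pltp and Lipg, and the dynein heavy chain gene Dnah2 (log2 -2.78), were robust, and in all of them the groups stood well apart.

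Few other genes of alternative activation passed, and few did over all tested genes (5.54% higher and 5.17% lower with GM). Of 17 tested members, 1 was higher with GM (Egr2, log2 0.65), 2 were lower (Retnla and Fn1) and 14 did not pass, and the median log2 fold change was 0.19 (-0.09 without GM replicate 2). Egr2 was lost in the 4 reduced fits (adjusted p = 0.075 to 0.095), where 0 were higher, and 4 were higher without GM replicate 3. Arg1, the arginase that competes with Nos2 for arginine, had 0.314, 0.561 and 1.12 CPM with GM, against 2.27, 2.17 and 1.82 CPM with MDP. Its log2 difference of -1.66 had an edgeR adjusted p of 0.06. Serpinb2, a plasminogen activator inhibitor gene, was robust, at 276, 215 and 224 CPM with GM, against 124, 132 and 110 CPM with MDP (log2 0.97, SE 0.12). Of 25 tested matrix protease, plasminogen system and growth factor genes, 7 were higher and 3 lower with GM. The 7 became 4 without GM replicate 1 or MDP replicate 1, 2 without MDP replicate 2 and 1 without MDP replicate 3, and the 3 became 1 in the 4 reduced fits and 7 without GM replicate 2.

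Cell cycle genes had lower levels with GM, unevenly across its libraries, and 7 passed. Pcna (ENSMUSG00000027342, chromosome 2, 132091082 to 132095234), the sliding clamp of DNA replication, had 133, 136 and 136 CPM with GM, against 218, 212 and 204 CPM with MDP, and was robust (log2 -0.65, SE 0.08, edgeR adjusted p = 0.0051). Cdk1, the mitotic kinase, had 10.4, 14.8 and 9.5 CPM with GM, against 23.4, 27.2 and 24.5 CPM with MDP (log2 -1.11, edgeR adjusted p = 0.014). Mki67, a marker of cycling cells, had 65.2, 92.4 and 54.8 CPM with GM, against 106, 119 and 129 CPM with MDP, and did not pass (log2 -0.73, edgeR adjusted p = 0.053). Of 32 tested genes 7 were lower and 0 higher with GM, and the median log2 fold change was -1.49. In 31 of the 32 every GM library was below every MDP library, against 18.8% of all tested genes. The list's median level was -0.87, 0.12 and -1.49 with GM, against 0.67, 0.93 and 0.77 with MDP, so GM replicate 2 lay closest to MDP. Without GM replicate 2, 30 of the 32 passed as lower with GM, 12 without GM replicate 3, and 1 in each of the 4 reduced fits, in which Cdk1 had an adjusted p of 0.062 to 0.078. In bulk RNA, fewer cycling cells and less RNA per cycling cell cannot be told apart.

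Genes of cholesterol and fatty acid synthesis had a like pattern of smaller size. Msmo1, a sterol demethylation enzyme gene, had 57.6, 66.8 and 46.1 CPM with GM, against 109, 108 and 110 CPM with MDP (log2 -0.94, SE 0.13, edgeR adjusted p = 0.0093). Sc5d, which acts late in the same pathway, differed by log2 -1.13, and the squalene synthase gene Fdft1 by log2 -1.05. Of 26 tested genes 8 were lower and 0 higher with GM, the median was -0.56, and 26 of 26 differences were negative. The count was 20 without GM replicate 2, 11 without GM replicate 3, 1 without GM replicate 1 and 0 without any MDP replicate. Msmo1 was lost without any MDP replicate (adjusted p = 0.056 to 0.058), and Sc5d and Fdft1 in the 4 reduced fits (0.057 to 0.079).

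Antioxidant genes driven by the stress factor NRF2 stood highest in GM replicates 1 and 3. Gclm, a subunit of the enzyme that limits glutathione synthesis, had 528, 147 and 546 CPM with GM, against 88.1, 89.1 and 90.7 CPM with MDP (log2 2.19, SE 0.45, edgeR adjusted p = 0.028). The thioredoxin reductase gene Txnrd1 had 862, 407 and 964 CPM with GM, against 270, 265 and 286 CPM with MDP (log2 1.44, edgeR adjusted p = 0.028). The list's median level was 0.91, -0.29 and 1.02 with GM, against -0.49, -0.55 and -0.5 with MDP, with GM replicate 2 above the MDP libraries but closer to them than to the other GM libraries. Of 24 tested genes 6 were higher with GM and 0 lower, with a median log2 fold change of 1.12. Without GM replicate 2, 21 were higher with GM. The count was 1 without GM replicate 3 and 0 in the 4 reduced fits, and over these 5 fits Gclm and Txnrd1 had adjusted p = 0.056 to 0.12.

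**Figure D4:**
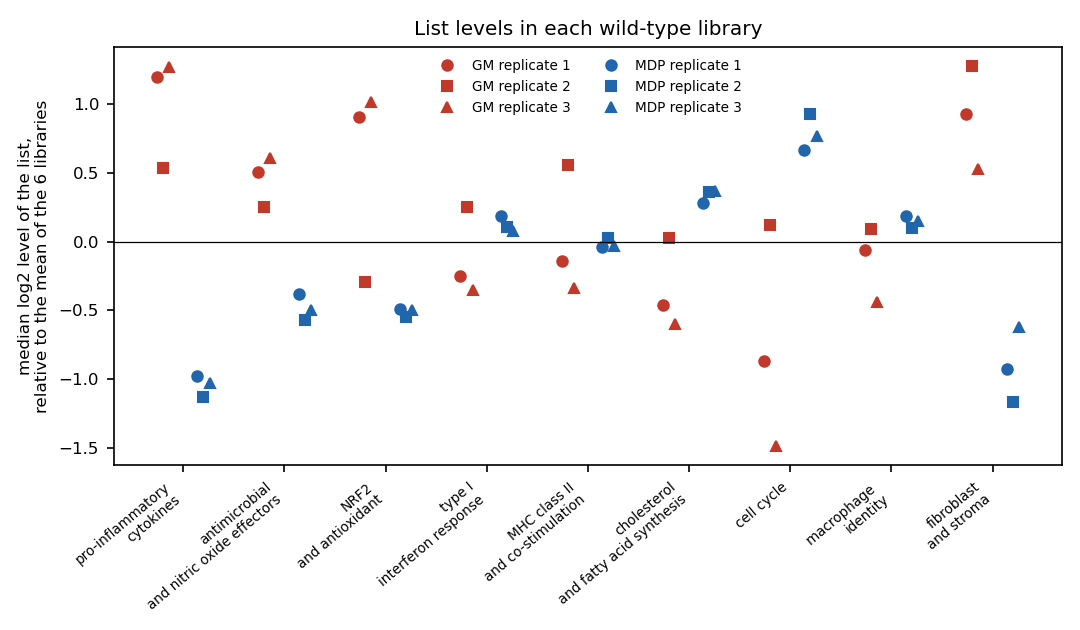
Median log2 level of 9 gene lists in each wild-type library relative to the mean of the 6 libraries, GM (red, left) and MDP (blue, right), with circles, squares and triangles for replicates 1, 2 and 3. The cytokine, antimicrobial, NRF2, cell cycle, cholesterol and stroma lists separate all GM from all MDP libraries, with GM replicate 2 (square) close to MDP for NRF2 genes (-0.29), whereas for interferon response genes (0.25) it lies above the MDP libraries and the other GM libraries below them.

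Energy metabolism genes differed modestly. The glucose transporter gene Slc2a1 had 233, 150 and 273 CPM with GM, against 99.7, 90.9 and 96.9 CPM with MDP (log2 1.19, edgeR adjusted p = 0.017), lost in the 4 reduced fits at adjusted p = 0.072 to 0.094. Of 24 tested glycolysis and HIF-1 target genes 2 were higher and 1 lower with GM, and without GM replicate 2 14 were higher. Of 29 tested oxidative phosphorylation genes 4 were higher with GM, by at most log2 0.58 (Ndufa4), and 0 of them were higher in the 4 reduced fits. Of 25 tested lysosomal genes 3 were lower with GM, among them the cathepsin genes Ctsl (log2 -0.77) and Ctsh (log2 -0.59), both lost in the 4 reduced fits (adjusted p = 0.055 to 0.13). Of 21 tested unfolded protein response genes 1 was higher with GM, Pdia4 (log2 0.81), also lost in those fits (0.13 to 0.16). For iron handling 2 of 12 were higher, among them the siderophore-binding Lcn2 at log2 1.85, and 1 was lower (Hfe, log2 -1.06), and these too were lost, at adjusted p = 0.059 to 0.13.

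The largest fold changes included genes outside these lists. Cyp26b1, which breaks down retinoic acid, had 15.1, 15.9 and 67.6 CPM with GM and 4 counts in all over the MDP libraries (log2 8.68, SE 1.08). GM replicate 3 stood far above GM replicates 1 and 2. Enpp2, which makes lysophosphatidic acid (autotaxin), had 25.8, 11.8 and 29.6 CPM with GM, against 0.686, 1.01 and 0.691 CPM with MDP (log2 4.8, SE 0.42). Slc1a2, a glutamate transporter gene, had 12, 5.1 and 18.9 CPM with GM, against 0.317, 0.302 and 0.377 CPM with MDP (log2 5.16, SE 0.58). Ddr2, a collagen receptor gene typical of mesenchymal cells, had 5.18, 3.31 and 9.85 CPM with GM, against 0.317, 0.302 and 0.377 CPM with MDP (log2 4.18, SE 0.5). Enpp2 was robust, whereas Cyp26b1, Slc1a2 and Ddr2 were tested only through the GM libraries, and their values are a description.

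Macrophage markers were abundant in every library. The 17 identity markers summed to 25000 to 25300 CPM with GM, against 29200 to 31100 CPM with MDP, and 2 of the 17 were higher and 1 lower with GM. The higher markers were Cd14 (log2 1.37) and Tlr4 (log2 0.54), both lost in the 4 reduced fits (adjusted p = 0.059 to 0.1). Lymphocyte markers (2 of 13 testable) summed to 7.08 to 11.2 CPM with GM, against 9.29 to 10.7 CPM with MDP.

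Markers of fibroblasts and stroma were higher with GM at low levels. The 15 tested markers (16 listed) summed to 105, 155 and 122 CPM with GM, against 35.2, 27.8 and 38.9 CPM with MDP. Of these 9 were higher with GM and 0 lower, with a median log2 fold change of 2.18. Bgn, the proteoglycan biglycan, had 24.6, 22.5 and 37.8 CPM with GM, against 3.96, 3.68 and 4.27 CPM with MDP (log2 2.83, SE 0.23, edgeR adjusted p = 0.002). Sparc and Cxcl12 were also robust (log2 2.58 and 2.8), whereas the collagen gene Col1a1, with 6.49, 15.9 and 6.26 CPM with GM, against 5.01, 2.82 and 2.83 CPM with MDP, did not pass (edgeR adjusted p = 0.081). The 9 became 11 without GM replicate 2 or 3, 5 without GM replicate 1 or MDP replicate 3 and 4 without MDP replicate 1 or 2. The part that such cells had in Ddr2 and in other genes higher with GM was not tested.

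Neutrophil markers summed to 2460, 1750 and 1210 CPM with GM, against 1910, 1790 and 1860 CPM with MDP. Of 9 tested, the granule genes Ltf (log2 -2.3, robust) and Ngp (log2 -2.3, lost without MDP replicate 1 at adjusted p = 0.052) were lower with GM. Counts in the other marker lists were small, and stand beside 5.54% higher and 5.17% lower with GM over all tested genes. Dendritic cell markers had 2 of 8 higher and 1 lower with GM, monocyte markers 1 and 1 of 10, and osteoclast markers 0 and 2 of 8, Acp5 (log2 -0.96) and Mmp9. Of these markers Acp5, Mmp9 and the monocyte-list gene Fn1 were robust. Of the few testable lymphocyte (2), mast cell (2) and erythroid or megakaryocyte (3) markers, 0 passed in edgeR or limma-voom. Their counts at an unadjusted p below 0.05 were 0, 1 and 1, and DESeq2 passed 0, 0 and 1.

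Whether the GM-MDP difference was the same without TLR4 was tested by the interaction, the wild-type difference minus the knockout difference, in a fit of 12 libraries. Tlr4 itself averaged 183 ± 5.65 CPM with GM and 126 ± 7.31 CPM with MDP in wild type, against 38.7 ± 1.5 CPM with GM and 49.3 ± 0.522 CPM with MDP in knockout cells (SD, n = 3 each, scaled over the 12 libraries). The deleted part of the gene is not given in the labels. Of 15001 genes tested, 2345 (15.6%) differed between genotypes, 1191 with a larger and 1154 with a smaller GM minus MDP value in wild type. The count was 4582 without wild-type GM replicate 2, and 1538, 1521 and 1519 without knockout GM replicate 2, knockout GM replicate 3 and knockout MDP replicate 3. Of the 788 genes higher with GM in wild type, 316 (40.1%) had a positive GM minus MDP value in knockout cells, against 50.5% of all genes tested there. Of the 734 genes higher with MDP that were tested there, 324 (44.1%) had a negative value in knockout cells, against 49.5% of all genes.

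For Il6, Nos2, Il12b, Il1b and Ptgs2 the order of the compounds was turned round in knockout cells. Il6 averaged 3.33 ± 0.298 CPM with GM and 26.2 ± 4.14 CPM with MDP in knockout cells (SD, n = 3 each), a log2 fold change of -2.97 (edgeR adjusted p = 0.0011). The difference between genotypes was 7.25 on the log2 scale (SE 0.46, edgeR adjusted p = 6.4e-06). Nos2 averaged 11.2 ± 1.3 CPM with GM and 77.8 ± 10.7 CPM with MDP in knockout cells (log2 -2.8, difference between genotypes 7.68, edgeR adjusted p = 4.2e-06). Il12b, though lost in some fits of wild type alone, averaged 17 ± 2.91 CPM with GM and 204 ± 47.1 CPM with MDP in knockout cells (log2 -3.58, edgeR adjusted p = 0.00044). Its difference between genotypes was 5.27 (SE 0.43, edgeR adjusted p = 4e-05) and passed in all 12 fits that left out a library. In knockout cells Il1b was at log2 -1.52 (edgeR adjusted p = 0.0079) and Ptgs2 at -1.83 (edgeR adjusted p = 0.0058).

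Other inflammatory genes did not pass in knockout cells, among them Il1a (log2 -0.56, edgeR adjusted p = 0.28) and Il36g (log2 0.49, edgeR adjusted p = 0.72). In knockout cells Il1a averaged 73.1 ± 2.98 CPM with GM and 107 ± 9.33 CPM with MDP. Il36g averaged 35.6 ± 1.07 and 25.4 ± 1.33 CPM there. The fit took a single spread per gene over all 12 libraries, and the wild-type GM SDs were 219 CPM (Il1a) and 55.7 CPM (Il36g). Not passing is therefore no sign of equal levels in knockout cells. Tnf did not pass there either, at 75.4 ± 3.87 CPM with GM and 73.4 ± 9.97 CPM with MDP in knockout cells (log2 0.04, SE 0.13), and its difference between genotypes was 2.13 (edgeR adjusted p = 1.9e-05). Apoe likewise differed in wild type and not detectably in knockout cells (log2 -0.11, SE 0.17), with a difference between genotypes of -1.56 (edgeR adjusted p = 0.0015). For Bgn the knockout libraries averaged 0.545 CPM with GM and 0.312 CPM with MDP, and its difference between genotypes did not pass (2.02, edgeR adjusted p = 0.13). Cxcl12 (3.32, edgeR adjusted p = 0.096) and Col1a1 (2.56, edgeR adjusted p = 0.075) did not pass either. Sparc passed with a difference of 2.88 (SE 0.54, edgeR adjusted p = 0.0038) and the proteoglycan gene Dcn with 2.4 (SE 0.45, edgeR adjusted p = 0.0036). Their knockout means were 0.319 and 0.773 CPM with GM and 0.384 and 0.833 CPM with MDP. For Sparc no knockout library was over the filter level, so its knockout value rests on few counts.

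**Figure D5:**
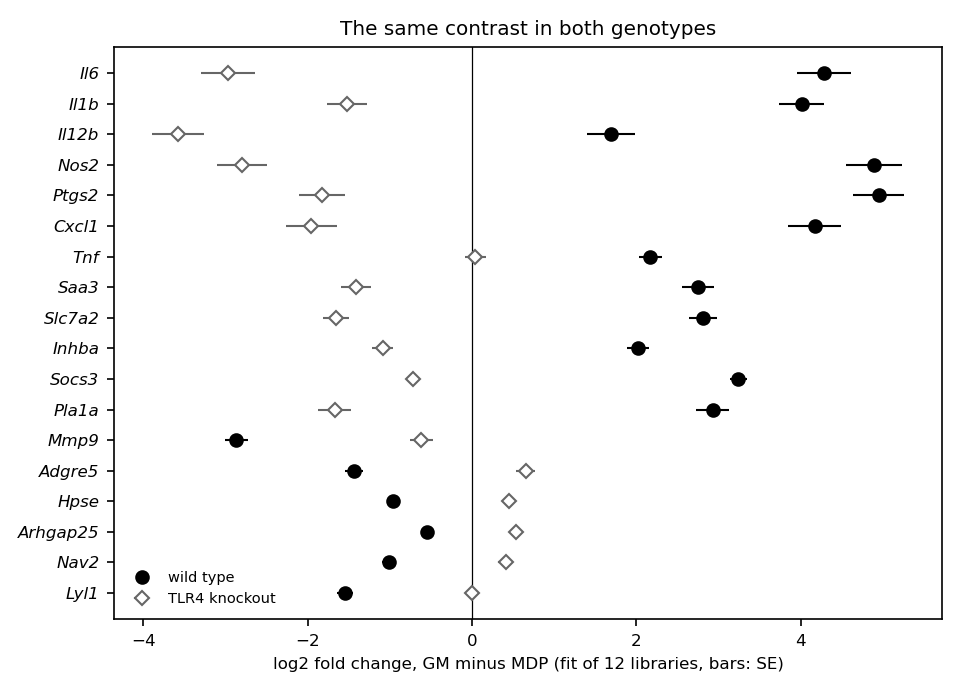
Log2 fold change, GM minus MDP, of 18 genes in wild-type (filled circles) and TLR4-knockout macrophages (open diamonds) in the fit of 12 libraries, with bars for the SE. Il6, Nos2 and Il12b lie right of 0 in wild type and left of it in knockout cells, Tnf is near 0 in knockout cells, and Mmp9 is left of 0 in both.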

How the data were processed

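Gene expression was read from the deposited count table, which holds the authors' raw whole-number counts for 56748 genes. Per the labels, libraries were directional and poly(A)-enriched. Per the submitters' processing notes, reads were aligned with HISAT2 2.0.5 to GRCm39 and counted with featureCounts 1.5.0-p3. Counting settings and the annotation release are not given in the sources used here, so near-identical genes may share reads. A deposited FPKM table was not used.

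The 3 wild-type GM and 3 wild-type MDP libraries, grouped by their labels, were fitted in R 4.3.3 with edgeR 4.0.16 (filterByExpr with a minimum count of 10, TMM scaling, robust quasi-likelihood F test, 2-sided, contrast GM minus MDP, 4 residual degrees of freedom). This left 14216 genes, tested at a threshold of 0.05 on the p-value adjusted by Benjamini-Hochberg over all of them. Each log2 fold change is given with its fitted SE or 95% interval. Depth was 16039614 to 19392017 counts per library, and the limit at 0 counts is 3 counts over a group, for counting error only. A fit of the 12 GM and MDP libraries of both genotypes (15001 genes) gave the test between genotypes. The script was tested on simulated data. Replicates of a group differed beyond counting noise in every pair.

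Genes were named by rule: the 14 largest fold changes per direction (protein-coding, at least 5 CPM in the higher group), up to 4 passing members per list by adjusted p (or the 2 highest in CPM where fewer than 2 passed), a set of anchor genes, and 6 genes per direction for the test between genotypes. The comparison, the 34 gene lists (623 of 625 symbols found) and the rule were chosen with earlier results of these data known, so list counts are descriptions. A few genes that the rule names are not reported here. Alternatives were RLE scaling, DESeq2 1.42.0, no filter on low counts, a replicate block, limma 3.58.1 (voom) with a spread per group, the fit of 12 libraries, and leaving out each library. Promoter sequences are from RefSeq (GRCm38.p6) and were searched for 2 motifs on both strands. Actb and Gapdh, also in the anchor set, did not pass (log2 -0.34 and -0.12), and Gapdh may share reads with pseudogene copies.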

Additional observations from a re-analysis of the deposited data

Results flagged for a closer look

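The GM minus MDP difference itself differed between wild-type and TLR4-knockout macrophages in 2345 of 15001 genes (edgeR interaction test). The 12 genes named here by the smallest adjusted p, 6 per direction, were picked for this difference, which is given on the log2 scale as wild type minus knockout.

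Socs3 had the largest ratio of difference to error, 3.96 (SE 0.13, edgeR adjusted p = 4e-09), with means of 106 CPM with GM and 11.3 CPM with MDP in wild type, and 86.6 CPM with GM and 143 CPM with MDP in knockout cells. The arginine transporter gene Slc7a2 differed by 4.47 and the activin A subunit gene Inhba by 3.11, each higher with GM in wild type and higher with MDP in knockout cells. The phospholipase gene Pla1a differed by 4.61 and the transporter gene Slco3a1 by 2.38, with the same turn in direction. The ribosome biogenesis gene Tma16 differed by 2.21, and its knockout difference did not pass (log2 -0.3, SE 0.1, edgeR adjusted p = 0.14). The adjusted p-values of these 5 differences between genotypes in edgeR lay between 4.5e-07 and 1.3e-06.

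In the other direction, the adhesion receptor gene Adgre5 differed by -2.09, with means of 65.8 CPM with GM and 178 CPM with MDP in wild type, and 87.1 CPM with GM and 55.4 CPM with MDP in knockout cells. Heparanase (Hpse) differed by -1.41, the GTPase-activating protein gene Arhgap25 by -1.09 and Nav2 by -1.42, all lower with GM in wild type and higher with GM in knockout cells. Lyl1, a transcription factor gene of blood cells, differed by -1.55, with 29.7 CPM with GM and 29.6 CPM with MDP in knockout cells. Mmp9 differed by -2.24 and was lower with GM in both genotypes, at 15.8 CPM with GM and 115 CPM with MDP in wild type, and 18.4 CPM with GM and 28.3 CPM with MDP in knockout cells. All 12 genes passed in each of the 12 fits that left out a library.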

How the results depend on the processing

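The number of genes differing between GM and MDP in wild type, 1523, was 1522 with RLE scaling, 1741 without a filter on low counts and 1945 with limma-voom and a spread per group. DESeq2 gave 2647 (1296 higher and 1351 lower with GM) and the fit of 12 libraries 4073 (2067 and 2006); the cause was not tested. Over the fits that left out 1 library the total ran from 208 (without MDP replicate 2) to 4535 (without GM replicate 2), the count higher with GM from 130 to 2294 and the count lower with GM from 78 to 2241. Each such fit has 5 libraries. For the 2345 genes differing between genotypes, that range was 1519 to 4582, with 807 to 2224 larger and 696 to 2358 smaller in wild type, the highest without wild-type GM replicate 2. The share of passing genes that were higher with GM was 51.7%, and ran from 42.6% (without GM replicate 3) and 44.4% (replicate block) to 63% (without MDP replicate 3). Deviations of same-numbered GM and MDP libraries were weakly correlated (0.04, 0.12 and 0.14), against -0.12 to 0.01 for differently numbered ones. Whether replicate numbers pair the libraries was not tested. A replicate block gave 1297 genes (576 higher and 721 lower with GM).

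Of the 124 named genes that passed, 124 still passed with RLE scaling, DESeq2, the fit of 12 libraries and without GM replicate 2. The number was 118 without GM replicate 3, 122 with limma-voom, 112 with the replicate block, 108 without a filter, 66 without GM replicate 1 and 58, 57 and 56 without MDP replicates 1, 2 and 3. No named gene that passed changed sign in these 12 alternatives. Without GM replicate 2, list medians changed sign for alternative activation (-0.09), MHC class II and co-stimulation (-0.3), monocyte markers (0.04) and osteoclast markers (-0.12, and -0.1 with limma-voom). They also did so without GM replicate 3 for matrix proteases (0.17) and dendritic cell markers (0.01), without GM replicate 1 for pattern recognition receptors (-0.01) and erythroid or megakaryocyte markers (-0.83), and without MDP replicate 1 for monocyte markers (0.07). Depth was alike across libraries (16039614 to 19392017 counts).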
